A study of Mus musculus with 8 samples.

Results

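AMPKα1 knockout (KO) and wild-type (WT) gastrocnemius muscle was compared at the level of whole genes. The comparison used 4 of the 8 libraries of the series, those of 2 AMPKα1 KO mice and 2 AMPKα1 WT mice, with 1 library per mouse. Reads of all alternative polyadenylation sites (APSs) assigned to a gene were summed, and sites assigned to no gene were dropped. A read was found for 14635 of the 15378 genes in the table, and the test took the 13941 genes whose reads summed to 16 or more in these libraries.

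All animals were adult by the labels and male by the methods, and the KO mice were about 6 weeks old, with no age given for the WT mice. The KO mice carried a homozygous deletion of DNA coding for part of the catalytic domain of the protein, in all tissues and not in muscle alone. The labels give C57BL/6 as the strain background of both groups, whereas the methods give 129S2/SvPas for the AMPKα1 KO mice, so a strain difference cannot be told apart from the genotype here. No other allele or treatment is given for either group.

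AMPK is a kinase made of a catalytic α subunit with β and γ subunits, and it is switched on when AMP rises relative to ATP. In muscle it is known to promote glucose uptake, fatty acid oxidation and mitochondrial biogenesis, and to restrain protein and lipid synthesis. The α2 subunit is the main catalytic form in muscle fibres, while α1 is also present in the many other cell types of the tissue. The gastrocnemius is a mostly fast, glycolytic calf muscle with a smaller share of slow, oxidative fibres.

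The libraries held 2311242 to 3432601 reads in all APSs, lowest in WT replicate 1 and highest in WT replicate 2, and 97.15 to 98.12% of these reads lay in genes. Levels are given below as CPM, reads scaled to a common library size by TMM, a normalization that centres most genes between libraries. A floor of 3 reads stood for 0.8285 to 1.638 CPM. Myofibre genes were abundant in every library, and Myh4, the fast myosin heavy chain of the fastest fibres, was at 27960 and 26770 CPM in KO and at 41570 and 39790 CPM in WT. The KO replicates resembled each other less than they resembled the WT libraries. Spearman correlation across the 13941 genes was 0.6657 between the KO replicates, 0.7824 between the WT replicates and 0.6989 to 0.7298 between KO and WT libraries; the genes are not independent replicates, and these values are a description.

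The reads of WTTS-seq mark the 3′ ends of transcripts, so each gene level rests on the sites at which its transcripts end. To show what was counted, the last 30 bases before the most read site are printed for 6 genes on which the results below turn, in GRCm38, with the polyadenylation signal AATAAA in capitals where it occurred.
Myh7: agcagAATAAAgcaattttccttaaagcca
Rnf126: atttaaaatacacctactcaaaaaagcaga
Rplp0: gatggaAATAAAggcttacttctcttaaaa
Higd2a: acttAATAAAagcttattacacttgtatgt
Ndufa13: tgagccaacgcacatAATAAAgagtggtca
Ampd1: aacagaatgAATAAAgtaaatagactaaat
The Myh7 stretch lies at chr14:54970687-54970716 on the minus strand, that of Rnf126 at chr10:79758539-79758568 on the minus strand and that of Rplp0 at chr5:115563486-115563515 on the plus strand. The stretches of Higd2a at chr13:54591123-54591152 and Ampd1 at chr3:103099689-103099718 are on the plus strand, and that of Ndufa13 at chr8:69894187-69894216 is on the minus strand. All 6 lie in an annotated exon of GENCODE release 21. The printed site took 99.74% of the reads of Myh7, 95.1% of Rnf126, 99.78% of Rplp0, all of Higd2a, 98.6% of Ndufa13 and 83.7% of Ampd1. For all of these genes but Ampd1 the gene level is nearly the level of this site. In the 30 bases of Rnf126 neither AATAAA nor ATTAAA was found, which says only that these letters are not in this window.

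The targeted gene could not be used to check the labels. Prkaa1, which encodes AMPKα1, had reads at only 1 site, at position 5163362 of chromosome 15 and in an intron of the annotation. That site held no reads in KO replicate 1, 82 in KO replicate 2, 15 in WT replicate 1 and none in WT replicate 2. The groups overlapped, and 3′ reads at an intronic site do not report on the deleted coding sequence. Prkaa2, encoding the other catalytic subunit, had 568 and 302 KO reads against 267 and 437 WT reads, or 161.5 and 83.4 CPM against 145.8 and 126.6 CPM. Its groups overlapped as well, with a log2 fold change of -0.15 ± 0.49 (SE).

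At the level of genes, edgeR called none higher and none lower in KO at an adjusted p under 0.1: 0 of 13941 (0%) in each direction, with the lowest Benjamini-Hochberg adjusted p at 0.763. At an unadjusted p under 0.05 edgeR gave 191 genes with a higher estimate in KO (1.37%) and 396 with a lower estimate (2.84%). DESeq2, run as an alternative, called 29 genes higher (0.287% of 10095 with an adjusted p) and 95 lower (0.941%). On simulated counts of this design with no gene changed, DESeq2 made 62 calls and edgeR made none. With changed genes DESeq2 made more false calls than true ones. Of 200 changed genes edgeR recovered only 19 at a 4-fold change and 104 at a 16-fold change. Its 0 calls here therefore do not show that no gene differed. A DESeq2 call is therefore given below as the output of that tool beside the reads, and not as evidence that a gene differed. The simulated counts were drawn with the spread that edgeR had fitted, so they cannot settle which of the real DESeq2 calls are false. Of the 95 lower calls, 54 had 0 reads in both KO libraries, and of the 29 higher calls, 9 had 0 reads in both WT libraries. Among genes with at least 10 reads in each of the 4 libraries, DESeq2 called 15 higher and 27 lower. When each library was left out in turn, the DESeq2 count of higher calls ran from 28 to 42, and that of lower calls was 5 without WT replicate 1, 135 without WT replicate 2, 322 without KO replicate 1 and 335 without KO replicate 2. Few of the DESeq2 calls were made again without WT replicate 1, and Myl9 alone was called in all of these fits. For many of the other genes DESeq2 gave no adjusted p without WT replicate 1, and these were counted as not called. For those genes a missing call is not a failed test. Others, Ampd1, Ctsd, Tpi1 and Pdlim7 among them, had an adjusted p without WT replicate 1 and were not called.

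Because most genes were read lightly, it mattered whether a gene was read in both mice of a group. Of the genes with at least 10 reads in a KO library, 8183 of 12403 reached 10 reads in both, and 2944 (23.74%) had 0 reads in the other KO library. For WT the numbers were 8500 of 11944, with 1355 (11.34%) at 0 in the other library. At a minimum of 50 reads the share with 0 reads in the other library was 11.92% in KO and 1.511% in WT. The KO replicates therefore differed more from each other than the WT replicates did, with a median absolute log2 difference of 0.991 against 0.816.

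**Figure D1:**
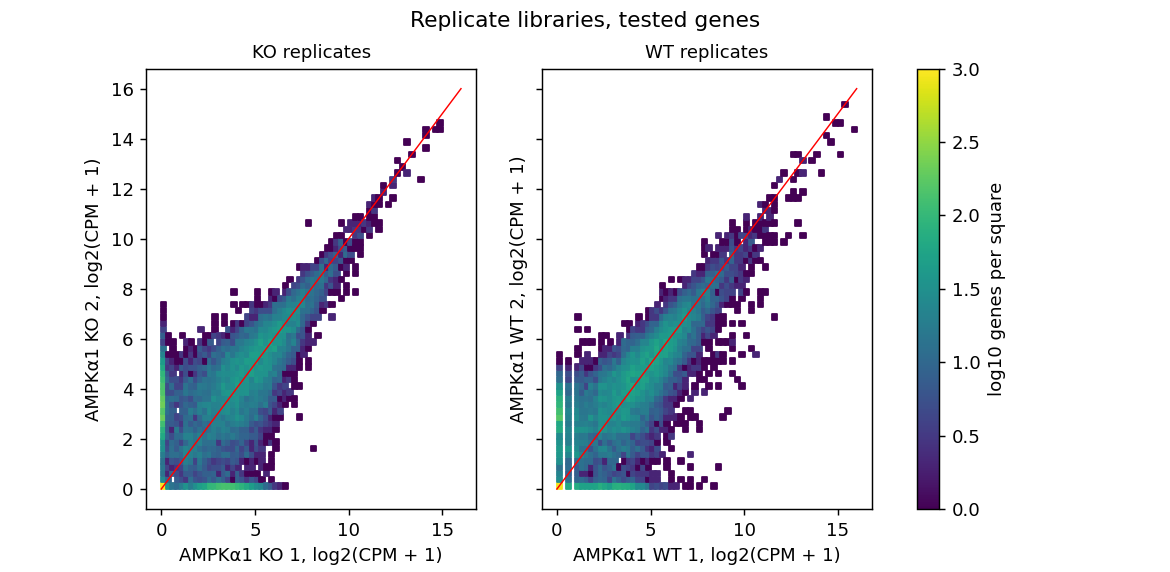
Level of each tested gene in replicate 2 against replicate 1, as log2(CPM + 1), for AMPKα1 KO (left) and WT (right), with colour giving the number of genes per square on a log10 scale and the red line marking equal levels. The bands along both axes are genes read in 1 mouse only; the Spearman correlation was 0.6657 in KO and 0.7824 in WT.

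As a description that uses every library, a gene was counted as apart when both KO libraries lay above, or both below, both WT libraries in CPM. KO was above WT for 1893 genes (13.6%) and below WT for 2636 genes (18.9%). Among the 1468 genes with a mean of at least 100 CPM the shares were 16.3% above and 24.2% below. With library totals in place of TMM the counts turned to 2596 above and 1965 below, and the median log2 fold change of all genes moved from -0.03 to 0.22, so which direction prevailed over all genes was set by the scaling. Below, each group of genes is therefore read against the median of all genes, and its counts above and below against the shares of 13.6% and 18.9% over all genes. For groups of abundant genes the shares of 16.3% and 24.2% are the closer ones. The genes above and below also differed in where their reads lay: reads outside exons and downstream regions made up a median of 20.3% of the reads of genes above WT and 0% of genes below, against 5.22% over all tested genes. Intronic reads took 10.15 and 12.25% of gene reads in KO and 6.496 and 9.63% in WT, and their part in these counts was not tested. With reads in exons and downstream regions only, 1258 genes lay above and 2676 below.

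Myl9 stood first among the genes with a higher estimate in KO. It encodes the regulatory light chain of smooth muscle and non-muscle myosin, and all its reads came from 1 site that lies downstream of its annotated exons, for which no sequence was read. Its 725 and 687 reads in KO compared with 18 and 60 in WT, or 206.2 and 189.7 CPM against 9.827 and 17.39 CPM. Both KO libraries were thus far above both WT libraries, with a log2 fold change of 3.84 ± 0.54 (SE), an unadjusted edgeR p of 0.0003 and a DESeq2 adjusted p of 1.6e-05. It was the only gene called by edgeR when the test was limited to the 6856 genes with at least 10 reads in each library, at an adjusted p of 0.00749. Most other smooth muscle genes did not share its pattern. Of 12 such markers tested, only Myl9 was called by DESeq2, 2 lay above WT (Myl9 and Myocd) and 2 below (Acta2 and Synpo2). Acta2, the smooth muscle actin, was at 15.07 and 33.69 CPM in KO and 51.86 and 105.2 CPM in WT, and Myh11, the smooth muscle myosin heavy chain, was at 32.99 and 46.12 CPM against 37.67 and 28.4 CPM, with overlapping groups.

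Rnf126, an E3 ubiquitin ligase, was the most abundant of the 12 genes with the lowest p on the higher side. Its level was 1575 and 900.3 CPM in KO and 303.5 and 358.8 CPM in WT. The lower KO library still lay well above both WT libraries, with a log2 fold change of 1.90 ± 0.42 and a DESeq2 adjusted p of 0.00456. Without KO replicate 1 its DESeq2 adjusted p was 0.223. Mxi1, a repressor that pairs with Max and opposes Myc, was at 113.7 and 101.9 CPM in KO and at 20.2 and 21.15 CPM in WT, so that the replicates of each group lay close together (log2 fold change 2.38 ± 0.51). Med1, a subunit of the Mediator complex that links transcription factors to RNA polymerase II, had 179 and 228 KO reads against 9 and 7 WT reads (4.06 ± 0.86).

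Tmem87b, a Golgi membrane protein, had 538 and 480 KO reads against 43 and 127 WT reads, and Dus4l, which encodes a tRNA dihydrouridine synthase, had 551 and 292 against 27 and 91. Thsd1, a thrombospondin domain protein of endothelium, had 261 and 137 reads against 9 and 19. DESeq2 called these 3 higher, at adjusted p values of 0.0826, 0.0907 and 0.0911. In 3 further genes much of the signal lay outside annotated exons: Dip2b with 227 and 185 reads against 6 and 12 (83.02% outside exons and downstream regions), the lncRNA gene D130009I18Rik with 378 and 220 against 24 and 32 (100%), and Atm, the DNA damage kinase, with 186 and 307 against 24 and 34 (62.79%). Atm was the only one of the 12 that DESeq2 did not call, with an adjusted p of 0.19. The pseudogene Gm6123 and the predicted gene Gm5801 completed the 12, with 436 and 317 reads against 5 and 0, and 121 and 68 against 0 and 1.

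On the lower side, the genes with the lowest p divided into moderately abundant genes read in all 4 libraries and genes hardly read in KO. In the first set, Rplp0, a protein of the stalk of the large ribosomal subunit, was at 73.37 and 72.91 CPM in KO and at 351 and 313.5 CPM in WT. The replicates of each group were close and the groups far apart, with a log2 fold change of -2.18 ± 0.40 and a DESeq2 adjusted p of 0.011. Rpl23, another large subunit protein, was at 44.08 and 35.63 CPM against 160.5 and 255.9 CPM (-2.38 ± 0.48; DESeq2 adjusted p 0.0329). Ctsd, a lysosomal aspartic protease, was at 100.4 and 85.06 CPM against 346.7 and 329.5 CPM (-1.87 ± 0.40; DESeq2 adjusted p 0.0388). Higd2a, which acts in the assembly of respiratory chain supercomplexes, was at 14.22 and 21.54 CPM in KO and at 199.8 and 103.7 CPM in WT (-3.08 ± 0.59). Cdk5rap1, an enzyme that modifies mitochondrial tRNAs, had 7 and 10 KO reads against 169 and 120 WT reads. Without WT replicate 1 the DESeq2 adjusted p became 0.286 for Rplp0, 0.154 for Rpl23, 0.473 for Ctsd and 1 for Higd2a, and without KO replicate 2 it was 0.101 for Rpl23 and 0.158 for Ctsd. Without WT replicate 2, DESeq2 gave no adjusted p for Rpl23 and Higd2a.

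In the second set, Gpihbp1 had 0 and 4 KO reads against 300 and 128 WT reads. It encodes the capillary protein that carries lipoprotein lipase to the vessel lumen, and DESeq2 called it lower at an adjusted p of 1.6e-05, with no adjusted p when either WT library was left out. Lpl itself, the lipase, stood on the other side: 2483 and 1569 CPM in KO and 1049 and 1072 CPM in WT, without a DESeq2 call (adjusted p 0.302). Both KO libraries had 0 reads for Acsl3, an acyl-CoA synthetase (66 and 144 reads in WT), Zfp775, a zinc finger gene (72 and 128), Gosr1, a Golgi SNARE (52 and 120), Iqcg (99 and 61) and Ube2e3, a ubiquitin-conjugating enzyme (66 and 86). The mean WT levels of these genes were 46.2-fold, 45.4-fold, 37.6-fold, 42.7-fold and 36.3-fold above the KO floor of 3 reads. These folds are not lower bounds of a difference. Of genes with at least 50 reads in a KO library, 11.92% had 0 reads in the other. The lncRNA gene LOC102643247 had 0 and 1 KO reads against 119 and 190 WT reads.

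**Figure D2:**
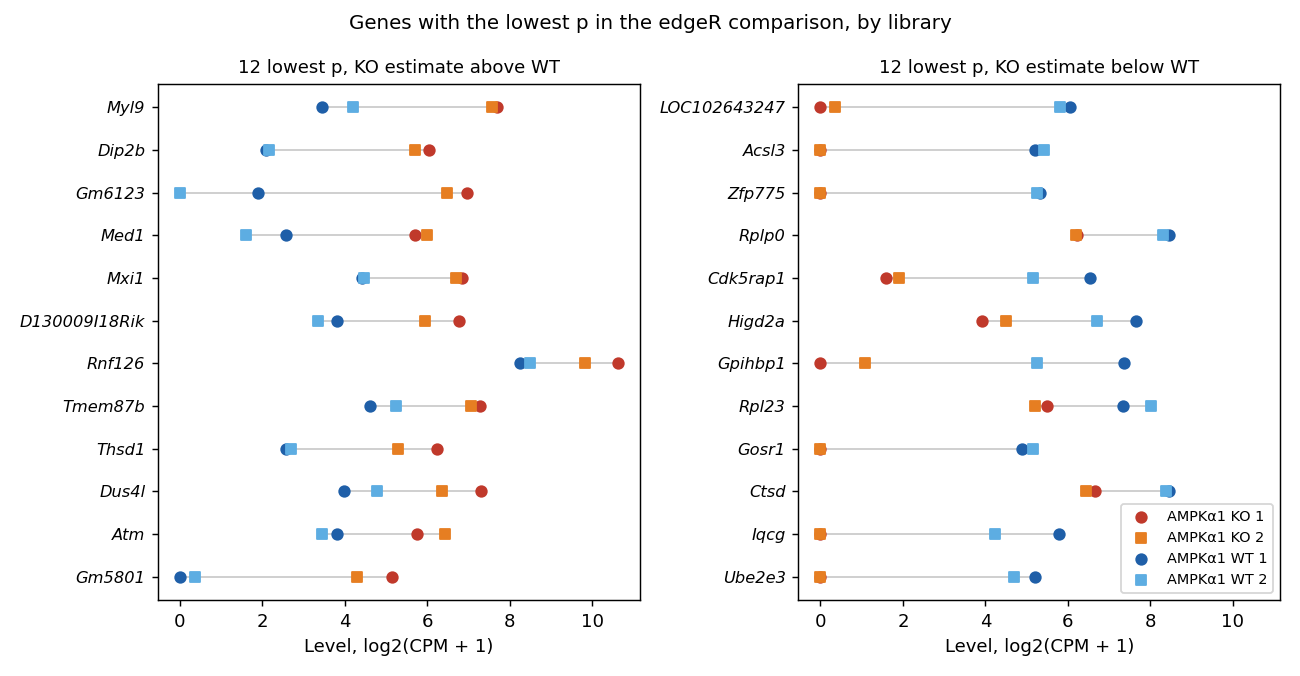
Level in each library, as log2(CPM + 1), of the 12 genes with the lowest edgeR p in each direction and at least 10 reads in both libraries of the higher group. Red and orange mark KO, dark and light blue WT, circles replicate 1 and squares replicate 2; markers overlap where both KO libraries had 0 reads, and no gene has overlapping groups.

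Genes read in both mice of a single group were few once a minimum was set. With at least 10 reads in both libraries of a group and 0 in both of the other, there were 218 genes read in WT and 68 read in KO. These are out of 8500 genes with 10 reads in both WT libraries and 8183 with 10 reads in both KO libraries. At 50 reads the numbers were 7 of 4303 for WT and 4 of 5079 for KO, and at 100 reads 0 and 0. Of the 7 genes of WT, Acsl3, Zfp775, Gosr1, Iqcg and Ube2e3 are described above, and the other two were Rbbp7, a histone-binding protein (68 and 57 reads), and Mettl11b, a methyltransferase gene (67 and 51). The 4 genes of KO were Cryzl1, with 87 and 66 reads, Ap5z1, an adaptor protein subunit, with 87 and 50, Lurap1, with 51 and 80, and the pseudogene Gm6197, with 50 and 93. DESeq2 called all 11 of these genes, but they were picked from the same counts for this very pattern, so the calls add no support. For the 7 genes with 0 reads in KO, the share of KO genes with 50 reads in a library and none in its replicate, 11.92%, stands beside these counts. For the 4 genes with 0 reads in WT, the WT share of 1.511% does.

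Nuclear genes of oxidative phosphorylation, which encode subunits and assembly factors of the respiratory chain and ATP synthase, were mostly lower in KO than in WT by level. Of 90 genes tested, KO lay below WT in 58 (64.4%) and above WT in 0. Over all genes these shares were 18.9% and 13.6%, and among genes of at least 100 CPM 24.2% and 16.3%. A log2 fold change below 0 was found in 85 of 90, where 51.1% of all genes lay below 0 and 48.9% above. The median log2 fold change was -0.78, against -0.03 over all genes. No member passed in edgeR, 0 of 90 were called higher by DESeq2, and 3 were called lower by DESeq2: Ndufa13, Ndufs8 and Atp5sl. Ndufa13 and Ndufs8 were not called again without WT replicate 1, and Atp5sl had no adjusted p there. Ndufa13, an accessory subunit of complex I, was at 216.1 and 162.7 CPM in KO and at 1092 and 397.6 CPM in WT (-1.98 ± 0.57; DESeq2 adjusted p 0.0415). Ndufs8, a core iron-sulfur subunit of complex I, was at 124 and 95.83 CPM against 537.7 and 256.5 CPM (-1.85 ± 0.50; DESeq2 adjusted p 0.0822). Atp5sl, which despite its name is not a subunit of ATP synthase, had 0 and 0 KO reads against 64 and 39 WT reads.

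The list was divided by complex, going by gene names alone, after its values were seen. Complex I here therefore takes in assembly factors, Ndufa4 and Ndufa4l2, and complex III takes in assembly factors too. KO lay below WT in 28 of 43 genes of complex I, 4 of 4 of complex II, 7 of 11 of complex III, 8 of 14 of complex IV and 10 of 17 genes named for ATP synthase (Atp5sl among them), and above WT in 0 of each. Sdhb, the iron-sulfur subunit of succinate dehydrogenase, was at 641 and 425.9 CPM in KO and at 1911 and 827.3 CPM in WT. Uqcrfs1, the Rieske protein of complex III, was at 157 and 170.1 CPM against 404 and 379.6 CPM. The 3 most abundant members were Uqcr11, Cox4i1 and Atp5a1. Uqcr11, of complex III, was at 2550 and 2140 CPM in KO and 2362 and 2310 CPM in WT, with overlapping groups. Cox4i1, of complex IV, was at 1773 and 1702 CPM against 2821 and 2115 CPM, and Atp5a1, of ATP synthase, at 1498 and 1154 CPM against 2476 and 2122 CPM.

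WT replicate 1 weighed on this result. The summed level of the 90 genes was 33190 and 29970 CPM in KO, 59900 CPM in WT replicate 1 and 40660 CPM in WT replicate 2. Both WT sums lay above both KO sums, but WT replicate 1 stood further away. Without it the median log2 fold change was -0.46 while that of all genes was 0.08, and over 14 alternative settings the list median ran from -0.95 to -0.46 and stayed below the median of all genes in each. By library totals KO lay below WT in 42 of the 90 genes and above in 2, where 14.1% and 18.6% of all genes did so.

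The tricarboxylic acid cycle and pyruvate entry followed in part. Summed levels of this list overlapped, at 11320 and 7923 CPM in KO and 14490 and 11040 CPM in WT. KO lay below WT in 14 of 32 genes (43.8%, against 18.9% of all genes and 24.2% of those of at least 100 CPM) and above in 3 (9.38%, against 13.6% and 16.3%), with a median log2 fold change of -0.61. Pdhb, the β subunit of the E1 component of pyruvate dehydrogenase, was at 17.35 and 51.64 CPM in KO and at 400.2 and 142.6 CPM in WT (-2.97 ± 0.77; DESeq2 adjusted p 0.0173), and it was the only member called. The Pdhb call was not made again without WT replicate 1. Mdh1, the cytosolic malate dehydrogenase, was at 993.9 and 773.8 CPM against 1449 and 1046 CPM. The 3 genes above WT were Idh2, Mdh2 and Suclg2; Idh2, the mitochondrial NADP-dependent isocitrate dehydrogenase, was at 870.7 and 476.1 CPM in KO and at 410 and 410.3 CPM in WT.

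In fatty acid uptake and oxidation KO lay below WT in 13 of 36 genes (36.1%) and above in 2 (5.56%), with a median log2 fold change of -0.53. Summed levels of this list overlapped, at 6164 and 5470 CPM in KO and 6387 and 5892 CPM in WT. Gpihbp1 was the only DESeq2 call in the list. The 2 genes above WT were Lpl and Slc27a1, a fatty acid transporter, at 128.8 and 233.6 CPM against 74.79 and 116.2 CPM. Ucp3, the uncoupling protein of muscle mitochondria, had 3 and 122 KO reads against 236 and 675 WT reads, and Mlycd, which degrades malonyl-CoA, was at 55.45 and 74.01 CPM against 161.6 and 159.1 CPM. Pdk2, an inhibitory kinase of pyruvate dehydrogenase, was at 422.6 and 459.3 CPM against 658.4 and 746.2 CPM. Fabp4, a fatty acid binding protein of adipocytes and endothelium, was at 275.8 and 478.3 CPM against 294.3 and 208.6 CPM, with overlapping groups.

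In glycolysis and glycogen metabolism KO lay below WT in 14 of 32 genes (43.8%) and above in 2 (6.25%), with a median log2 fold change of -0.37. The list summed to 19190 and 22890 CPM in KO, 49880 CPM in WT replicate 1 and 26130 CPM in WT replicate 2. WT replicate 1 thus stood furthest away, and over the alternative settings the median ran from -0.48 to -0.10. Aldoa, the muscle aldolase, was at 3966 and 4539 CPM in KO, 16670 CPM in WT replicate 1 and 6275 CPM in WT replicate 2. Ldha, a lactate dehydrogenase subunit, was at 2126 and 2833 CPM against 5808 and 5134 CPM. DESeq2 called Tpi1 and Pfkfb3 lower, and neither call was made again without WT replicate 1. Tpi1, triosephosphate isomerase, was at 842.9 and 1089 CPM against 2848 and 1905 CPM (-1.30 ± 0.37; DESeq2 adjusted p 0.0911), and Pfkfb3, which makes and degrades the activator of phosphofructokinase, was at 80.48 and 53.85 CPM against 302.4 and 217.6 CPM (-1.95 ± 0.46; DESeq2 adjusted p 0.0778). Pgam2, the muscle phosphoglycerate mutase, was at 6055 and 8330 CPM against 9490 and 6587 CPM, with overlapping groups.

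Genes of creatine, adenylate and AMP metabolism, which supply the nucleotides that AMPK senses, had a median log2 fold change of -0.81. KO lay below WT in 10 of 19 (52.6%) and above in 1 (5.26%). The list summed to 9880 and 8620 CPM in KO, 17640 CPM in WT replicate 1 and 11270 CPM in WT replicate 2. Ampd1, the muscle AMP deaminase, was at 491.7 and 560.9 CPM in KO and at 1672 and 1087 CPM in WT (-1.39 ± 0.38; DESeq2 adjusted p 0.0804), and it was the only member called. With a library left out, the Ampd1 call was made again only without WT replicate 2. Ckmt2, the mitochondrial creatine kinase of muscle, was at 386.7 and 249.9 CPM against 1119 and 665.6 CPM. Slc25a4, the ADP/ATP carrier of muscle mitochondria, was at 4965 and 4423 CPM against 7550 and 5948 CPM, and Ckm, the cytosolic creatine kinase, at 1164 and 840.4 CPM against 3079 and 885.9 CPM, with overlapping groups. The gene above WT was Slc6a8, the creatine transporter, at 81.33 and 127.6 CPM against 73.7 and 45.5 CPM.

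Contractile genes of fast and slow fibres had medians on opposite sides of that of all genes, a difference that was not tested. Of 14 fast fibre genes (with Myl1 counted also on an unplaced scaffold), KO lay below WT in 12 (85.7%) and above in 0, with a median log2 fold change of -0.76. Among all genes of at least 100 CPM, 24.2% lay below and 16.3% above. Mylpf, the fast regulatory light chain, was at 5447 and 5024 CPM in KO and at 13980 and 10220 CPM in WT (-1.21 ± 0.32; DESeq2 adjusted p 0.0826), and it was the only fast gene called. The Mylpf call was not made again without KO replicate 1 or without KO replicate 2. Tnnt3, the fast troponin T, was at 9215 and 6804 CPM in KO, 35180 CPM in WT replicate 1 and 10950 CPM in WT replicate 2. Tnnc2, the fast troponin C, overlapped between groups at 24350 and 20070 CPM against 58060 and 19700 CPM, as did Myh2. Pvalb, the calcium buffer parvalbumin of fast fibres, was at 17670 and 20780 CPM against 29910 and 25850 CPM. Without WT replicate 1 the median of the fast genes was -0.50, and by library totals it was -0.45 with 11 of 14 below WT.

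The 13 slow fibre genes had a median log2 fold change of 0.60, with 3 above WT (Myh7, Tpm3 and Csrp3) and 2 below (Mb and Mybpc1). Myh7, the slow myosin heavy chain, was at 2395 and 1416 CPM in KO and at 666 and 658.7 CPM in WT. Both KO libraries lay above both WT libraries, and DESeq2 called it higher (1.52 ± 0.39; adjusted p 0.0242). Tpm3, the slow tropomyosin, was at 1006 and 371.7 CPM against 248.9 and 221.1 CPM. In Myl2 and Myl3, the slow light chains, only KO replicate 1 stood out, at 1343 and 1011 CPM. KO replicate 2 was at 452.1 and 249.9 CPM, and the WT libraries were between 302.8 and 543.2 CPM. Without KO replicate 1 the median of the list was -0.17 and the DESeq2 adjusted p of Myh7 was 0.508, so the higher level of slow genes as a list rested on that mouse. Mb, the myoglobin gene, was at 145 and 156.9 CPM against 292.1 and 279.9 CPM.

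**Figure D3:**
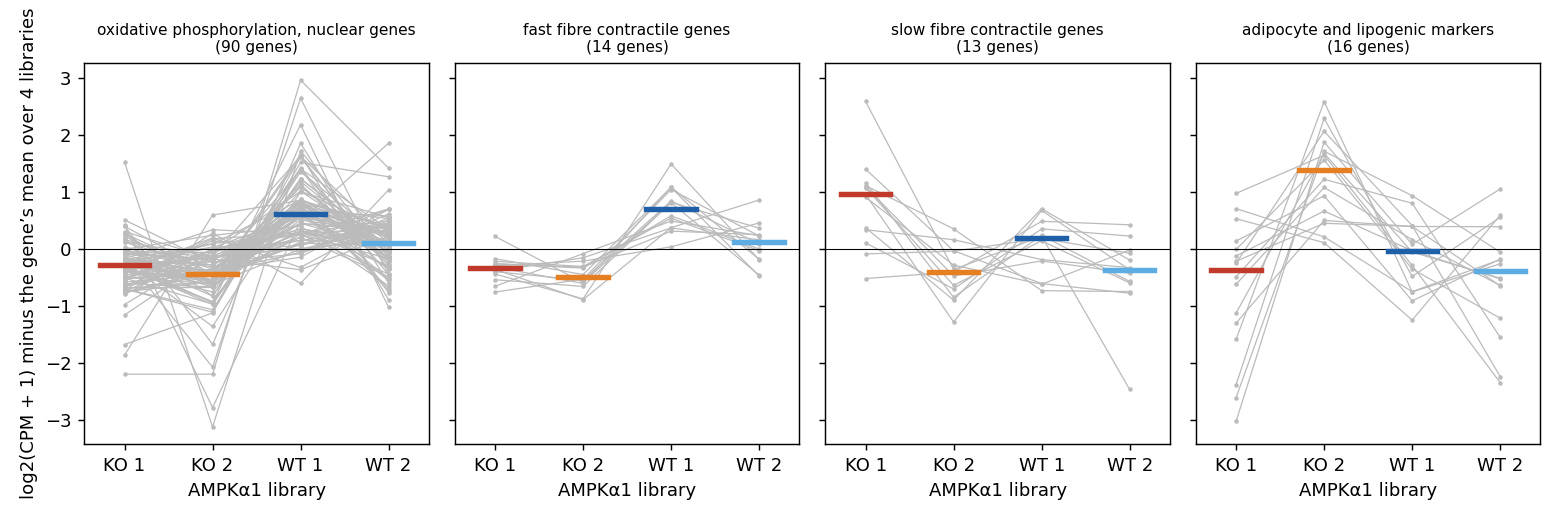
Level of each member of 4 gene lists in the 4 libraries, as log2(CPM + 1) minus the mean of that gene over the libraries; grey lines are genes and coloured bars are medians per library. By these medians, genes of oxidative phosphorylation and fast fibres are lowest in both KO libraries and highest in WT replicate 1, slow fibre genes are highest in KO replicate 1, and adipocyte genes are highest in KO replicate 2.

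In a wider sarcomere list, which shares Tpm1 and Actn3 with the fast fibre list, 15 of 38 genes (39.5%) lay below WT and 3 above (Myom2, Capzb and Pdlim5), with a median log2 fold change of -0.33. Pdlim7, a PDZ and LIM protein of the Z-disc, was the only call, lower in KO by DESeq2 at 69.95 and 63.52 CPM against 220 and 268.9 CPM (-1.87 ± 0.42; DESeq2 adjusted p 0.0826). The Pdlim7 call was not made again in any fit with a library left out, and without WT replicate 2 the gene had no adjusted p. Tpm1 was at 9590 and 14260 CPM against 21230 and 17760 CPM, and Actn3, the fast α-actinin, at 5734 and 5387 CPM against 9711 and 6525 CPM. Acta1, skeletal actin, overlapped at 13780 and 5387 CPM against 12500 and 8391 CPM. Among 27 genes of calcium release and uptake, which share Pvalb and Atp2a1 with the fast fibre list, 9 lay below (33.3%) and 2 above (Ryr1 and Pln), with a median of -0.35. Casq1, the calcium store protein calsequestrin, was at 2274 and 2878 CPM against 3887 and 5518 CPM, whereas Ryr1, the release channel, was at 3239 and 3033 CPM against 2945 and 2969 CPM.

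DESeq2 also called abundant genes outside the lists, of which 5 are named here after their values were seen. All 5 are higher calls, although DESeq2 called 29 genes higher and 95 lower. Their calls were not kept when KO replicate 1 was left out. Pde4dip, myomegalin, which anchors phosphodiesterase at the Golgi and centrosome, was at 10180 and 10900 CPM in KO and at 4009 and 5497 CPM in WT (1.15 ± 0.32; DESeq2 adjusted p 0.0778). Tacc2, a centrosomal coiled-coil protein, was at 1517 and 1075 CPM against 590.2 and 533.2 CPM, and Polr2c, a subunit of RNA polymerase II, at 1082 and 678.8 CPM against 352.7 and 332.4 CPM. Klf2, a transcription factor known from endothelium and lymphocytes, was at 529.2 and 280.3 CPM against 131.6 and 115.3 CPM (1.71 ± 0.46; DESeq2 adjusted p 0.0714). Cirbp, the cold-inducible RNA-binding protein, was at 501.6 and 221.5 CPM against 91.72 and 111.3 CPM, with 100% of its reads outside exons and downstream regions.

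Among 17 ubiquitin genes and ligases of muscle wasting, 2 lay above WT and 5 below, with a median log2 fold change of -0.48. Fbxo32 (atrogin-1), a ubiquitin ligase component induced in atrophy, was the only call and was higher in KO. It was at 1277 and 384.2 CPM in KO and at 244 and 154.2 CPM in WT, with KO replicate 1 far above the others (2.06 ± 0.64; DESeq2 adjusted p 0.0329, and 0.868 without KO replicate 1). Trim63 (MuRF1), the other ligase of atrophy, was at 239.4 and 309.3 CPM against 555.8 and 234.1 CPM, with overlapping groups. Ubb, a polyubiquitin gene, overlapped too. Of 35 proteasome subunits 3 lay above and 7 below (20%, near the 18.9% of all genes), with a median of -0.24. Psmd6, of the regulatory particle, was called lower by DESeq2 at 11.66 and 17.4 CPM against 121.2 and 71.29 CPM. With a library left out, this call was made again only without KO replicate 2, and without WT replicate 2 no adjusted p was given. Of 36 autophagy and mTOR genes 2 lay above and 10 below (median -0.25), with no call. Map1lc3a, an LC3 gene, was at 38.1 and 43.36 CPM against 100.5 and 93.89 CPM.

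Of the cytosolic ribosomal protein genes, 4 of 62 lay above WT (6.45%) and 13 below (21%, near the 18.9% of all genes), with a median log2 fold change of -0.12. Rplp1, the most abundant, was at 2825 and 2507 CPM in KO and at 2175 and 2594 CPM in WT, and Rpl13 was at 2792 and 2983 CPM against 2047 and 2201 CPM. Rplp0 and Rpl23 were the only members called by DESeq2. Several pseudogenes called lower by DESeq2 had most of their WT reads in WT replicate 1, such as Rps15a-ps7 with 3 and 1 KO reads, 238 in WT replicate 1 and 40 in WT replicate 2. Mrpl23-ps1 had 4 and 0 KO reads, 269 in WT replicate 1 and 1 in WT replicate 2. Reads of such copies can be shared with their parent genes, and these values are uncertain.

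The energy-sensing pathway itself showed no call. Of 14 genes for AMPK subunits and upstream kinases 2 lay above WT and 4 below, with a median log2 fold change of -0.30. Prkab2, the β2 subunit, was the most abundant, at 380.5 and 421.4 CPM in KO and at 610.4 and 654.3 CPM in WT. Prkag3, the γ3 subunit of fast muscle, was at 117.2 and 122.6 CPM against 267.5 and 141.1 CPM, whereas Prkag2, the γ2 subunit, was at 125.4 and 112.1 CPM against 24.57 and 58.83 CPM. The groups of these 3 genes did not overlap, and none passed a test. Of 16 AMPK substrates and related genes 3 lay above and 4 below (median 0.08), and Ulk1, the autophagy kinase, was at 9.1 and 14.36 CPM against 39.31 and 46.37 CPM. Of 14 regulators of mitochondrial biogenesis 3 lay above and 2 below (median 0.05). Ppargc1a (PGC-1α) was at 91.57 and 60.76 CPM against 75.34 and 26.08 CPM, with overlapping groups, and Ppargc1b was at 88.72 and 86.44 CPM against 146.3 and 160 CPM. Esrrg and Ppara, 2 of the 3 above WT, were read only outside exons and downstream regions. In reads of exons and downstream regions only, 0 of the 14 regulators lay above and 3 below (21.4%, against 19.2% of all genes). Their sums were then 396 and 353 CPM in KO against 527 and 512 CPM in WT. With all reads the sums were 704 and 717 CPM against 665 and 648 CPM.

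Of 22 genes of glucose uptake and insulin signalling 7 lay above WT (31.8%, against 13.6% of all genes) and 4 below (18.2%, against 18.9%), with a median log2 fold change of 0.30 and no call. Ptpn1, a phosphatase of the insulin receptor, was at 184 and 238.1 CPM in KO and at 83.53 and 79.11 CPM in WT, and Akt2, a kinase downstream of the receptor, at 92.42 and 138.1 CPM against 44.22 and 50.13 CPM. Pik3r1, the regulatory subunit of PI3 kinase, was at 133.7 and 151.9 CPM against 77.52 and 54.19 CPM, and Rac1 at 408.6 and 358.5 CPM against 287.2 and 295.6 CPM. Irs1 lay on the other side, at 39.24 and 24.86 CPM against 62.78 and 72.16 CPM. In reads of exons and downstream regions only, 4 of 22 lay above (18.2%, against 9.02% of all genes) and 5 below (22.7%, against 19.2%).

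Of 21 circadian clock and output genes 6 lay above WT and 3 below (median 0.23, no call). Tef was at 679.9 and 562.6 CPM in KO and at 417.6 and 451.5 CPM in WT, whereas Dbp, another output factor of the same family, was at 400.4 and 289.7 CPM against 526.8 and 546.2 CPM. Of 21 heat shock genes 5 lay above and 4 below (median -0.14), with Hsp90ab1 at 2461 and 1903 CPM against 1184 and 1477 CPM. Of 23 antioxidant genes 0 lay above and 2 below (median -0.07). Of 18 myogenic and MEF2 factors 4 lay above and 2 below (median 0.31); Myod1, the myogenic regulator, had 55 and 72 KO reads against 6 and 1 WT reads. Of 19 dystrophin complex and membrane genes 2 lay above and 4 below (median -0.15), and Sgca, α-sarcoglycan, was at 96.97 and 29 CPM against 286.1 and 154.2 CPM.

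**Figure D4:**
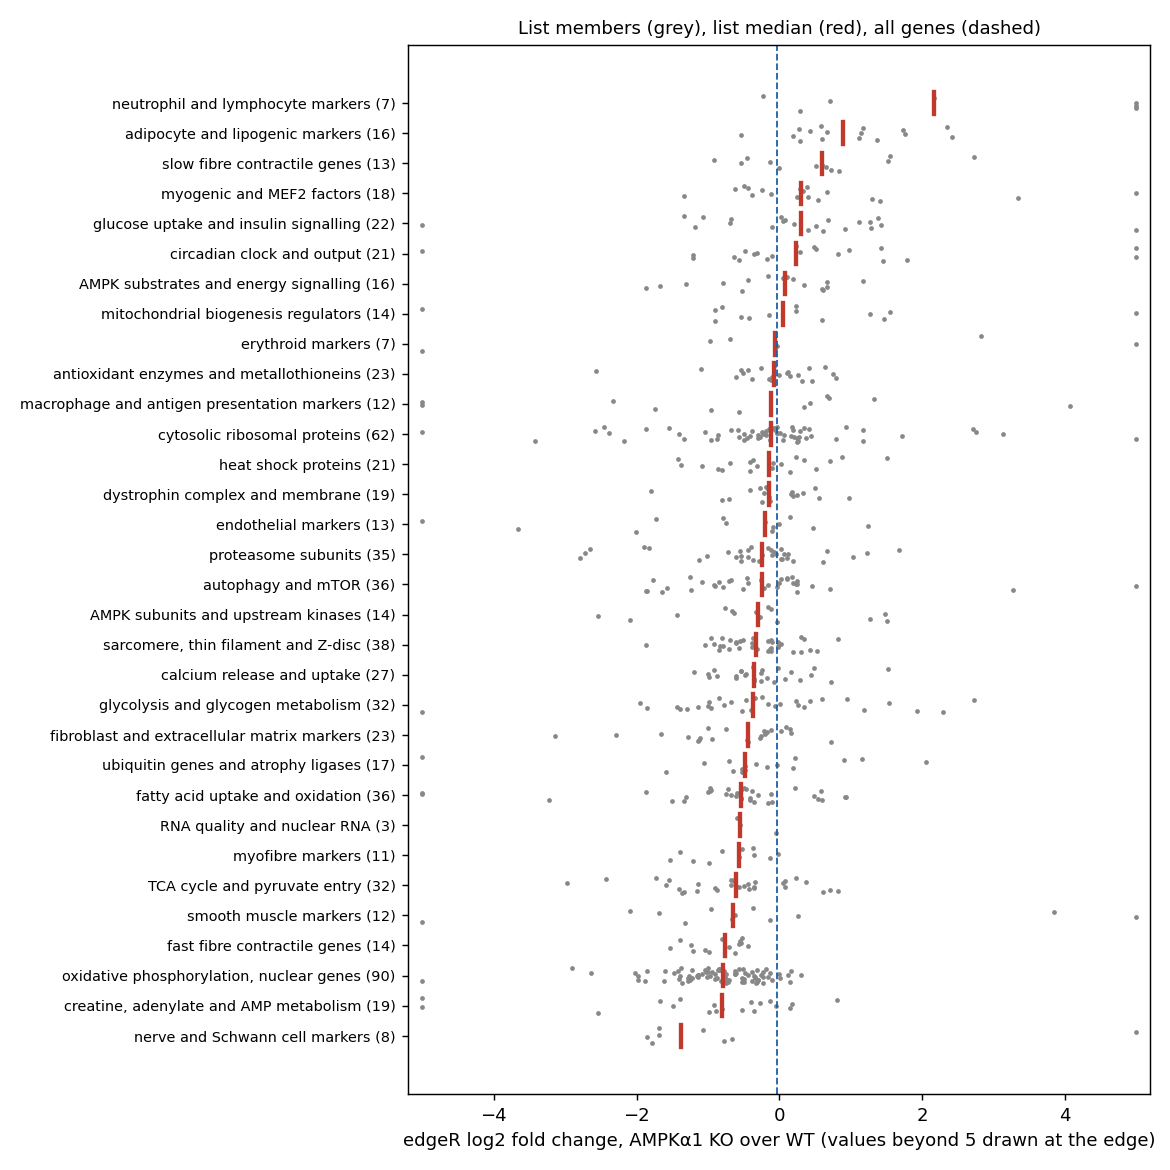
Log2 fold change (AMPKα1 KO over WT, edgeR) of each tested member of the gene lists (grey points, number of members in parentheses), with the list median in red and the median of all tested genes, -0.03, as a dashed line. Oxidative phosphorylation, fast fibre and creatine genes have medians between -0.81 and -0.76, and the 7 neutrophil and lymphocyte markers have a median of 2.17 that comes from KO replicate 2.

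Markers of cells other than myofibres differed between the mice, and in whole muscle fewer cells of a type and less RNA per cell cannot be told apart. Some lymphocyte genes, picked here after their values were seen, were read only in KO replicate 2. Cd22 of B cells had 199 reads there and 0 in the other 3 libraries. Glycam1, a ligand of lymph node vessels, had 319 reads there and Grap2, a T cell adaptor, 245, again with 0 elsewhere. DESeq2 called Cd22, Glycam1 and Grap2 higher in KO, at adjusted p values of 0.0969, 0.0329 and 0.0665, although each was read in only 1 KO mouse. The 7 neutrophil and lymphocyte markers summed to 21 CPM in KO replicate 1, 91.1 CPM in KO replicate 2, and 30 and 8.69 CPM in WT. Ptprc, the pan-leukocyte CD45, had 1 and 223 KO reads against 4 and 5 WT reads.

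Adipocyte and lipogenic markers were highest in the same mouse. The 16 genes summed to 852 CPM in KO replicate 1, 3049 CPM in KO replicate 2, and 1225 and 868 CPM in WT. Cfd, adipsin, was at 217.5 and 1527 CPM against 458 and 332.7 CPM, and Adipoq, adiponectin, had 4 and 152 reads against 44 and 40. For 4 of the 16 both KO libraries nevertheless lay above both WT libraries: Fasn, Plin1, Cebpa and Cidea. Plin1, the lipid droplet protein of adipocytes, had 236 and 389 KO reads against 50 and 20 WT reads, and Fasn, fatty acid synthase, 247 and 763 against 101 and 103. The list median was 0.89 with all libraries and -0.32 without KO replicate 2. Their part in the results above was not tested.

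Nerve and matrix markers are given by their counts. Of 8 nerve and Schwann cell markers 6 lay below WT (75%, against 18.9% of all genes) and 1 above (12.5%, against 13.6%). Their median log2 fold change was -1.38. Pmp22, a protein of peripheral myelin, was at 42.09 and 54.41 CPM in KO and at 99.36 and 211.3 CPM in WT. Of 23 fibroblast and extracellular matrix markers 8 lay below WT and 0 above (median -0.44). Sparc, a collagen-binding matrix protein, was called lower by DESeq2 at 511.9 and 693.5 CPM against 1926 and 1874 CPM (-1.66 ± 0.35; adjusted p 0.0101). The call was kept without WT replicate 1, WT replicate 2 or KO replicate 2, and the adjusted p was 0.179 without KO replicate 1. Col1a2 was at 1208 and 1461 CPM against 3113 and 2763 CPM, while Col1a1, the other chain of type I collagen, overlapped at 7103 and 7294 CPM against 6197 and 10350 CPM, and so did Dcn.

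Of 13 endothelial markers 5 lay below WT and 1 above (median -0.21). Besides Gpihbp1, the lower set held Kdr, the main VEGF receptor, at 3.128 and 19.33 CPM in KO and 50.77 and 39.99 CPM in WT, and Aqp1, a water channel, with 15 and 7 reads against 56 and 169. Cdh5 and Pecam1, which define the cell type, overlapped, at 126.3 and 73.46 CPM against 72.61 and 140.3 CPM and at 30.71 and 13.81 CPM against 21.84 and 22.6 CPM. Esam, a junction protein, lay above WT at 326.5 and 146.9 CPM against 100.5 and 99.11 CPM. Of 12 macrophage markers 2 lay above and 5 below (median -0.11); C1qa, a complement component made by macrophages, was at 13.37 and 27.89 CPM against 64.42 and 73.61 CPM. Of 7 erythroid markers 1 lay above and 1 below, and the globin genes overlapped. Of 3 nuclear RNAs taken as a sign of RNA quality, Neat1 lay below WT at 209 and 284.2 CPM against 371.2 and 372.7 CPM, and Malat1 and Kcnq1ot1 overlapped.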

How the data were processed

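WTTS-seq libraries, which read the 3′ ends of polyadenylated RNA, were compared for 2 AMPKα1 KO and 2 WT mice. The deposited values are raw read counts per APS and library. The authors trimmed leading Ts, mapped the reads to the mouse genome (GRCm38.p5 by the submitters' processing notes), clustered read starts into APSs and assigned these to genes. Here counts were summed per gene, and genes whose reads summed to 16 or more were tested with edgeR 4.0.16 (R 4.3.3; TMM, robust quasi-likelihood test, two-sided, Benjamini-Hochberg adjusted p under 0.1). DESeq2 1.42.0 was an alternative. Both tools were tested on simulated counts, drawn with the spread that edgeR had fitted. With no gene changed edgeR made no call and DESeq2 made some. With changed genes both made false calls, DESeq2 more of them than true calls, and edgeR recovered 19 of 200 genes changed 4-fold. Library totals limit the precision of lightly read genes. APSs were located in GENCODE release 21, downstream meaning within 2 kb of a gene's end.

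Named were Prkaa1 and Prkaa2, the 12 genes per direction with the lowest edgeR p and at least 10 reads in both libraries of the higher group, and, per list, the 3 most abundant members and any called member. For most lists only some of the 3 are printed, some genes are not reported here, and further members were named after their values were seen. The members and lists were chosen with earlier results of these data known. With 2 mice per group an exact two-sided permutation test cannot go below a p of 0.333, and p-values measure only the spread between these mice. Alternatives were other scalings, filters and site sets, a replicate block and each library left out.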

Additional observations from a re-analysis of the deposited data

How the results depend on the processing

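edgeR called 0 genes in either direction in every setting except a minimum of 10 reads in each library, which gave 1 higher (Myl9) and 0 lower; leaving out each library gave 0 to 0. DESeq2 called 29 higher and 95 lower. All DESeq2 alternatives were chosen after seeing the data. With at least 10 reads in both libraries of a group it called 50 higher and 160 lower, at an adjusted p under 0.05 it called 8 and 47, and with library totals 34 and 49. Leaving out each library gave 28 to 42 higher and, for lower calls, 322 and 335 without KO replicates 1 and 2, and 5 and 135 without WT replicates 1 and 2. The log2 fold change of Prkaa2 reversed to 0.093 with library totals and, over each library left out, ran from -0.71 without KO replicate 1 to 0.24 without KO replicate 2. The cause of these changes was not tested.

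With the replicate number as a block edgeR again called 0 and 0, with 127 higher and 253 lower estimates at an unadjusted p under 0.05, and DESeq2 called 9 higher and 56 lower. The labels do not say whether the numbers pair the mice. Deviations of same-numbered libraries correlated at 0.03379, a single value that cannot settle it. Over 42 named genes, 559 values were recomputed, of which 517 kept direction and side of the threshold, 40 passed it in the same direction and 2 reversed. Among the edgeR settings only Myl9 passed, so the other passes are calls of DESeq2 at its defaults. Most of these genes had been named for a low p or for such a call, so these passes are no further support. Depth of 2311242 to 3432601 reads leaves genes under about 1 CPM unresolved.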
